A study of Mus musculus with 2 samples.

Results

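The cells described here are 85 of the 3173 cells that passed the filters in single-cell RNA sequencing of CD11c-selected cells from mammary tumours of PyMT mice. They are called Xcr1/Clec9a cells, after the genes that chose them. A barcode was kept as a cell if it held 2000 or more UMIs (unique molecular identifiers, each counted once per captured molecule) and had at most 10% of them from mitochondrial genes. A cell became a member if Xcr1 and Clec9a together gave 2 or more UMIs, if C1qa, C1qb and C1qc together made up under 0.1% of its UMIs, if Fscn1 gave under 2 UMIs, and if the cell-cycle genes Top2a, Birc5, Ube2c and Cdk1 together gave under 3. The PyMT transgene, the middle T antigen of polyoma virus, gives rise to mammary tumours in these mice, which were on the C57BL/6N background. All samples were labelled wild type, and the 2 libraries (replicate 1 and replicate 2, numbered by accession) were both of tumour microenvironment, both labelled as myeloid cells and both selected as positive for CD11c, the integrin encoded by Itgax. Neither age nor treatment was given, and nothing in the labels said that the libraries came from separate animals. The p-values measure only how far differences between sets of cells varied between these 2 libraries. A shift shared by all sets of a library was taken out first, and the spread that is left may be technical. There was no other group, and all comparisons are between sets of cells taken from the same libraries.

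Conventional dendritic cells take up antigen and present it to T cells. The type 1 conventional dendritic cell (cDC1) depends on the transcription factors IRF8 and BATF3, and is known for cross-presentation, in which antigen from dead or infected cells is loaded on MHC class I and shown to CD8 T cells. XCR1 is the receptor for the chemokine XCL1, which NK cells and CD8 T cells release, and CLEC9A is a lectin receptor that binds actin filaments exposed on dead cells. In tumours these cells are sparse, and they are known for carrying tumour antigen to lymph nodes and for priming CD8 T cells.

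Replicate 1 held 17369071 UMIs and replicate 2 held 13317214. In replicate 1, 46 of 1958 cells met the rule, which is 2.35% (exact binomial 95% interval 1.73 to 3.12%). In replicate 2, 39 of 1215 met it, which is 3.21% (2.29 to 4.36%). The intervals overlap, and they cover counting error only. The mean share was 2.78% ± 0.608 (SD, n = 2). Of the 84 cells of replicate 1 with 2 or more Xcr1 and Clec9a UMIs, 18 were left out by the C1q limit alone, 17 by the cell-cycle limit alone and 1 by the Fscn1 limit alone. In replicate 2, with 53 such cells, these numbers were 3, 9 and 0. No cell barcode was shared by members of the 2 libraries, and 2 were shared among all cells. None of the members was among the 31 and 12 cells with the highest doublet scores (Scrublet) of replicate 1 and replicate 2. Members had a median of 8302.5 UMIs in replicate 1 (lowest 2137, highest 15662) and 11097 in replicate 2 (lowest 6520, highest 17818).

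The values that chose the members are given as a description. Xcr1 on chromosome 9 (chr9:123852315-123862029, minus strand, GRCm38) gave 70 UMIs in the members of replicate 1 and 106 in those of replicate 2. Clec9a on chromosome 6 (chr6:129408862-129424763, plus strand) gave 65 and 86. Both genes were seen in 30 members of replicate 1 and 29 of replicate 2, Xcr1 alone in 9 and 6, and Clec9a alone in 7 and 4. The sum of both had a median of 2 UMIs in replicate 1 (highest 7) and of 4 in replicate 2 (highest 15), so that in replicate 1 most members stood at or near the limit.

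Cells on either side of each limit are set side by side through the 11 other cDC1 markers (Itgae, Irf8, Wdfy4, Batf3, Cadm1, Tlr3, Naaa, Ppt1, Cd24a, Snx22, Gcsam), as their summed level in UMIs per 1000000 (CPM). With the other limits kept, cells with no Xcr1 or Clec9a UMI had 887 CPM in replicate 1 and 772 in replicate 2. The 39 and 15 cells with 1 UMI, just outside the rule, had 2608 and 3046. The 24 and 10 cells with 2 UMIs, just inside, had 3999 and 5049, close to the 4449 and 5276 of the 22 and 29 cells with 3 or more. The level of these markers thus lay between that of members and that of other cells just below the limit. Cells left out by the cell-cycle limit alone had 3769.7 and 3995 CPM, below the 4220 and 5226 of members. They had more UMIs per cell, with medians of 12778 and 17058. Those left out by the C1q limit alone had 2223 and 1975, together with 9889.9 and 12825 CPM of the 7 macrophage markers that are no C1q gene, against 587 and 326 in members. In cells left out by the cell-cycle limit alone these macrophage markers were at 1410 and 252 CPM.

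The label of cDC1-like cells is set beside marker lists in 4 further sets of cells from the same libraries. The lists hold genes that chose the members and the gates, so the sums describe the sets and do not test the label. The Cd209a gate (cDC2-like by its gene, 165 and 142 cells) had 2 or more UMIs of Cd209a, a lectin of type 2 conventional dendritic cells, and met the members' limits on C1q, Fscn1 and cell-cycle genes. The C1q gate (macrophage-like, 934 and 538 cells) had at least 0.3% of UMIs from C1q genes, and the Fscn1 gate (mature dendritic, 35 and 24 cells) had 2 or more UMIs of Fscn1, an actin bundler of mature dendritic cells, and at least 1 of Ccr7. The Krt gate (epithelial, 98 and 37 cells) had 3 or more UMIs of Krt8 and Krt18 and none of Ptprc, and stands for the level that free RNA gives in cells that should lack dendritic genes. Cells with an Xcr1 or Clec9a UMI were kept out of the Cd209a, C1q and Fscn1 gates, and cells with a Cd209a UMI out of the C1q gate. In the Krt gate this was no condition, and neither Xcr1 nor Clec9a had a UMI there.

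Summed over 13 genes, with Xcr1 and Clec9a among them, the cDC1 markers reached 4568 and 5673 CPM in the members of replicate 1 and replicate 2. They reached 668 and 667 in the Cd209a gate, 753 and 722 in the C1q gate, 1270.2 and 793 in the Fscn1 gate and 845 and 896 in the Krt gate, where Cd24a, which epithelial cells also express, gave 707 and 783 of these. All 13 had UMIs in members. Of the 9 cDC2 markers 8 had UMIs in members, with a sum of 203 and 93.3 CPM against 2605 and 3202 in the Cd209a gate, and Ltb was at 0. Cd209a itself had a UMI in 4 members of replicate 1 and 2 of replicate 2. Macrophage markers summed to 716 and 417 CPM in members against 41856 and 49943 in the C1q gate, with Mertk at 0. Monocyte markers summed to 1092 and 483 CPM in members, with Vcan at 0, against 1554 and 1092 in the Cd209a gate, 654 and 557 in the C1q gate and 215 and 661 in the Fscn1 gate. In replicate 1 members were thus above the C1q and Fscn1 gates in this list. The list holds Plac8 and Ly6c2, which were uneven among members. Next, plasmacytoid dendritic cell markers summed to 265 and 236, mostly Bst2, with Klk1 at 0. Mature dendritic markers summed to 536 and 86.3 against 13414 and 12599 in the Fscn1 gate, and 116 of the 208 UMIs behind it in replicate 1 members were of Ccr7. T and NK cell markers gave 20.6 and 2.33 CPM, with Cd3e, Cd3g and Ncr1 at 0. Of the 9 genes in this list 7 were counted, as Trac and Trbc2 are not among the gene symbols of the matrices. Epithelial markers gave 306 and 168 CPM against 42999 and 39584 in the Krt gate. Hemoglobin and mast cell markers had no UMI in members. The summed cDC1 list was thus higher in members than in the 4 gates. The summed cDC2, macrophage, mature dendritic and epithelial lists were lower than in the gate chosen for each. Single cDC1 markers were also higher in members in both libraries, apart from Cd24a, Irf8 and Batf3. Cd24a was at 649 and 714 CPM in members, below the Krt gate. Irf8 was at 834 and 951 in members, with 1004 and 498 in the Fscn1 gate. Batf3 was at 116 and 90.9, with 76.8 and 127 in the Fscn1 gate.

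**Figure D1:**
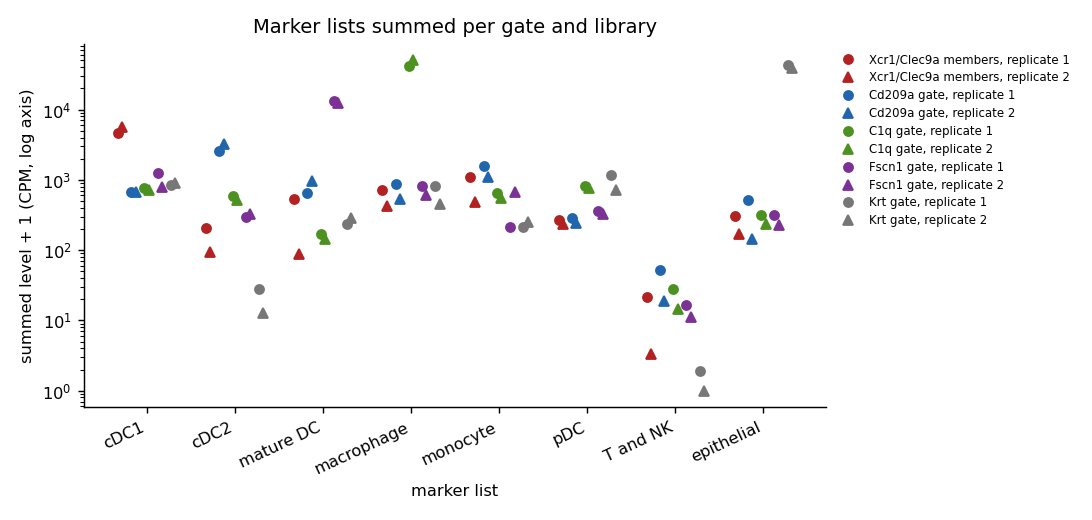
Summed level of 8 marker lists (CPM plus 1, log axis) in the Xcr1/Clec9a members and 4 gates, with circles for replicate 1 and triangles for replicate 2. The members hold 4568 and 5673 CPM of the cDC1 list, above every other gate; Xcr1, Clec9a and the genes that chose each gate are included, so the points describe the gates and test nothing.

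UMIs were summed per library over the members and over each of the Cd209a, C1q and Fscn1 gates, and members were compared with each gate over the 2 libraries. The members' sums held 388366 and 428839 UMIs. Levels are CPM scaled by TMM, given for replicate 1 and replicate 2 in that order, and a difference is the log2 level in members minus that in the other gate. Adjusted p values are from edgeR's quasi-likelihood test with Benjamini-Hochberg adjustment over 6030 genes, and a gene was called below 0.05. None of these genes chose the members or the Cd209a, C1q or Fscn1 gate. These genes did not enter the rule, but they were counted in the same cells. Against the Cd209a gate, 5.89% of the genes tested were called higher in members (355) and 7.78% lower (469). Against the C1q gate these were 14.8% (890) and 16.3% (982), and against the Fscn1 gate 8.71% (525) and 10.8% (652). Median differences over all genes were -0.02, -0.03 and 0.05. Genes were named by a rule on the size of the change and on fixed names; B2m, Calr, Ccl3, Ccr2, Cd86, Cebpb, Ctsb, Ctss, H2-D1, H2-K1, Ifi30, Il18, Il1b, Irf7, Itgal, Kit, Ly75, Pdia3, Psap, Psmb8, Psme1, Psme2, Rab11a, Stat2, Tap2 and Timd4 were added after their values were seen, and some genes named by the rule in 1 comparison are also given in others, such as Clec12a, Tap1 and Lgmn against the Cd209a gate, Psmb9 against the Fscn1 gate and Ccl22 against the C1q gate. Each share serves below as the background for the counts in gene lists. The 3 comparisons share the sums of the members, so they are not independent of each other. The Fscn1 gate was the smallest, and 2 of its cells in replicate 2 carried 10 or more collagen UMIs; fibroblast markers summed to 35.9 and 3069.6 CPM there.

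The transcription factors of the lineage come first. Irf8 on chromosome 8 (chr8:120736358-120756694, plus strand) stood at 844 and 1007 CPM in members. It stood at 45.2 and 20.6 in the Cd209a gate (log2 difference 4.88 ± 0.32 (SE), adjusted p = 9.21e-06) and at 191 and 151 in the C1q gate (log2 difference 2.47 ± 0.26 (SE), adjusted p = 3.45e-05). In the Fscn1 gate it was at 1087 and 524 CPM, on either side of the members' values, and was not called (log2 difference 0.28 ± 0.27 (SE), adjusted p = 0.51). After every cell was thinned to 2000 UMIs, 75.3% of members had an Irf8 UMI, against 4.23% of the Cd209a gate, 27.6% of the C1q gate, 57.6% of the Fscn1 gate and 4.44% of the Krt gate; unthinned the first and the last were 92.9% and 5.93%, at median depths of 8302.5 and 11097 UMIs in members and 7239 and 9363 in the Krt gate. The thinned share in the Cd209a gate was close to that in the Krt gate, while its level before TMM scaling was 45.5 and 19.4 CPM against 4.44 and 9.38 in the Krt gate.

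Batf3, the partner of Irf8 in this lineage, was far less abundant in UMIs, at 117 and 96.3 CPM. It rose against the Cd209a gate, with 50.9 and 44.1 CPM (log2 difference 1.17 ± 0.26 (SE), adjusted p = 0.012), and against the C1q gate, with 39.4 and 37.5 CPM (log2 difference 1.47 ± 0.23 (SE), adjusted p = 0.000745). Both calls were lost after each cell was thinned to 2000 UMIs. Fscn1 gate cells held 83.2 and 134 CPM, and the difference was not called (log2 difference -0.03 ± 0.30 (SE), adjusted p = 0.957). Id2, an inhibitor of E proteins that conventional dendritic cells need, was at 1167 and 1284 CPM and rose only against the Cd209a gate among the 3 comparisons, with 673 and 513 there (log2 difference 1.08 ± 0.18 (SE), adjusted p = 0.00258); the differences between comparisons were not tested. Zbtb46, a factor of conventional dendritic cells, was at 13 and 12.3 CPM. It rose against the C1q gate, at 1.07 and 0.761 (log2 difference 3.71 ± 0.68 (SE), adjusted p = 0.00181), fell against the Fscn1 gate, at 72.1 and 48.1 (log2 difference -2.23 ± 0.53 (SE), adjusted p = 0.0135), and was not called against the Cd209a gate (adjusted p = 0.494). Its calls against the C1q and Fscn1 gates were also lost after thinning to 2000 UMIs.

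Irf4 and Maf, factors tied to other lineages, had 1 and 0 UMIs in members. Irf4, which cDC2 cells depend on, had 1 UMI in the members of both libraries together and 32.7 and 33.8 CPM in the Cd209a gate, a pooled ratio of 26.2-fold (counting interval 4.55 to 1049.7) lower in members. Maf, a macrophage factor, had no UMI in members and 68.3 and 61.4 CPM in the C1q gate, which makes it at least 17.2-fold lower against a floor of 3 counts over both libraries. Cebpb fell in all 3 comparisons, with 10.4 and 0 CPM in members, 65.3 and 54.4 in the Cd209a gate, 111 and 85 in the C1q gate and 22.2 and 53.4 in the Fscn1 gate (adjusted p = 0.00374, 0.000183 and 0.0417); the call against the Fscn1 gate was lost under 7 alternative settings. Relb, a maturation factor of the NF-kB family, was at 39.1 and 17.3 CPM in members and at 488 and 476 in the Fscn1 gate (log2 difference -4.12 ± 0.28 (SE), adjusted p = 6.18e-06). Of the 27 transcription factors listed, 25 were tested, with 5 higher and 5 lower against the Cd209a gate, 6 and 7 against the C1q gate, and 0 and 5 against the Fscn1 gate; the list's median differences were -0.37, -0.08 and 0.04 (-0.15 in the first with a gene of no UMI in one of the sets at its bound). Against the Fscn1 gate DESeq2 also called 0 higher, and 3 were higher at an unadjusted edgeR p under 0.05. Beside the edgeR counts, the shares over all genes were 5.89% and 7.78%, 14.8% and 16.3%, and 8.71% and 10.8%.

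Among surface and enzyme genes known for cDC1, those that did not enter the rule are described next; the list of 30 was written from knowledge of this cell type and its direction is no independent evidence. Of 24 tested, 21 were called higher and 0 lower against the Cd209a gate (median 2.997), the same numbers against the C1q gate (median 3.43), and 16 higher and 1 lower against the Fscn1 gate (median 3.16, or 2.85 with 4 genes of no UMI at their bounds). Neither DESeq2 nor edgeR at an unadjusted p under 0.05 gave any lower gene, 0 against the Cd209a and 0 against the C1q gate. The one that fell was Ly75, the endocytic receptor DEC-205, at 20.8 and 14.8 CPM in members and 77.7 and 53.4 in the Fscn1 gate (log2 difference -1.87 ± 0.56 (SE), adjusted p = 0.0419), a call lost under 7 alternative settings.

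Itgae on chromosome 11 (chr11:73090583-73147446, plus strand), which encodes CD103, the integrin chain that binds E-cadherin, was at 125 and 252 CPM, higher in replicate 2. It stood at 16.3 and 9.38 in the Cd209a gate (log2 difference 3.85 ± 0.40 (SE), adjusted p = 0.000137), 2.68 and 1.78 in the C1q gate (log2 difference 6.26 ± 0.40 (SE), adjusted p = 1.35e-06) and at 5.55 and 0 in the Fscn1 gate, where 1 UMI was counted and the pooled ratio was 69.9-fold (counting interval 12.4 to 2778). Wdfy4 on chromosome 14 (chr14:32959547-33185508, minus strand), which cDC1 cells need to cross-present antigen of dead cells, was at 216 and 291 CPM against 36.5 and 46, 17.2 and 19.3 and 16.6 and 26.7 in the Cd209a, C1q and Fscn1 gates. Its differences were 2.62 ± 0.20, 3.78 ± 0.19 and 3.54 ± 0.34 (SE), with adjusted p = 2.31e-05, 2.79e-07 and 5.12e-05. Both genes were higher in members of both libraries than in any of the 3 gates.

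Naaa, a lysosomal amidase of lipid amides, was at 995 and 1563 CPM in members against 201 and 325 in the Cd209a gate, 157 and 138 in the C1q gate and 11.1 and 10.7 in the Fscn1 gate, with differences of 2.28 ± 0.21, 3.06 ± 0.21 and 6.85 ± 0.41 (SE; adjusted p = 6.49e-05, 2.1e-06 and 3.31e-06). Ppt1, a lysosomal enzyme that removes palmitate from proteins, was at 1019 and 1183 CPM against 73 and 65.7, 157 and 182 and 27.7 and 16, with differences of 3.98 ± 0.18, 2.70 ± 0.16 and 5.65 ± 0.28 (SE; adjusted p = 7.15e-07, 7.28e-07 and 7.63e-07). In the Krt gate these were at 9.76 and 4.69 and at 69.2 and 53.9 CPM before TMM scaling. Cst3, which encodes cystatin C, an inhibitor of cysteine cathepsins, was the most abundant of the named genes: members held 37889 and 40315 CPM against 5546 and 5558 in the Cd209a gate, 5699.9 and 6059 in the C1q gate and 21332 and 16319 in the Fscn1 gate. Its differences were 2.82 ± 0.10, 2.73 ± 0.10 and 1.06 ± 0.10 (SE; adjusted p = 1.75e-07, 5.72e-08 and 4.24e-05). Single members had a median of 303 Cst3 UMIs in replicate 1 (16 to 646) and 396 in replicate 2 (201 to 822).

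Cadm1, an adhesion molecule that binds CRTAM on T and NK cells, was at 232 and 269 CPM. It was low in the Cd209a gate, at 8.65 and 5.63 (log2 difference 5.12 ± 0.30 (SE), adjusted p = 6.04e-06), but stood at 113 and 146 in the C1q gate (log2 difference 0.96 ± 0.19 (SE), adjusted p = 0.00266). The call of Cadm1 against the C1q gate was lost under DESeq2. Flt3, the growth factor receptor on which cDC1 numbers depend, was at 67.7 and 119 CPM. It rose against the C1q gate (1.97 and 0.761 CPM, log2 difference 5.92 ± 0.49 (SE), adjusted p = 7.36e-06) and was not called against the Cd209a gate (40.4 and 47.8 CPM, adjusted p = 0.0828; called under 5 alternative settings) or the Fscn1 gate (99.8 and 37.4 CPM, adjusted p = 0.566). Itgax, the gene of the CD11c selection, was at 83.4 and 61.7 CPM in members and was called in none of the 3 comparisons (adjusted p = 0.0964, 0.0569 and 0.193), but was called lower in members under 9 alternative settings against the C1q gate and 3 against the Cd209a gate. Its levels in the Cd209a, C1q and Fscn1 gates were 103 and 150.1, 106 and 139.8 and 16.6 and 58.8 CPM.

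**Figure D2:**
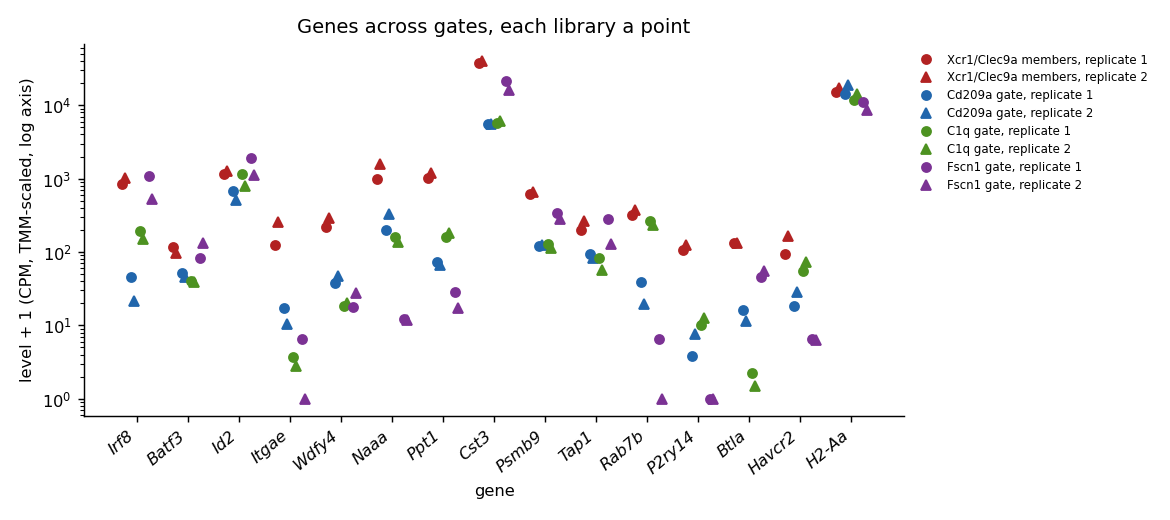
Level of 15 genes (CPM scaled by TMM, plus 1, log axis) in members and in the Cd209a, C1q and Fscn1 gates, with circles for replicate 1 and triangles for replicate 2. Naaa, Ppt1, Cst3 and Wdfy4 lie above all 3 gates in both libraries, while Irf8 overlaps with the Fscn1 gate and H2-Aa is within a narrow range in all gates.

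Starts of genes whose level set members apart are shown to give the sequence context of these differences. RefSeq promoter windows (assembly GRCm38.p6, the assembly of mm10; 250 bases before to 50 after the start) were searched on both strands for GAAANNGAA, the short form of the element bound by IRF factors in interferon-responsive genes, and for TGANTCA, the AP-1 element bound by BATF and JUN factors. GAAANNGAA was found in 2812 of 32851 windows of this length (8.56%) and TGANTCA in 2565 (7.81%). Windows are printed 5' to 3' on the strand of the gene, with matches in capitals. Clec9a, which chose the members, has a match on the reverse strand at position -2 from the start; Ncoa7, among the largest rises against the Cd209a gate, has a pair at 8 and 38 in one of its windows; Psme1, which encodes a proteasome activator subunit, has a reverse match at 11; P2ry14, a receptor for nucleotide sugars, has TGANTCA at -144 and -202 in 2 of its 4 windows. Tap1 and Psmb9, both called higher in members against the Cd209a and C1q gates, start next to each other on opposite strands of chromosome 17 in RefSeq, where their windows overlap almost whole (Psmb9, chr17:34187281-34187580), and neither window holds either motif; the one of Tap1 is shown. Clec9a, Xcr1, Psme1, Psme2, Psmb8, Tapbp and the pair on chromosome 17 were added after their values were seen.
Clec9a, chr6:129408612-129408911, plus strand: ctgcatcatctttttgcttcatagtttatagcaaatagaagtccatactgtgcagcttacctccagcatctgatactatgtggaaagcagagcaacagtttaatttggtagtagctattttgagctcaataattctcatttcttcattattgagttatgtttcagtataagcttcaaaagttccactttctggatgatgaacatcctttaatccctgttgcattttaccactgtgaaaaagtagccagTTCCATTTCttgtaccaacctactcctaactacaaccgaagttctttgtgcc
Ncoa7, chr10:30655818-30656117, minus strand: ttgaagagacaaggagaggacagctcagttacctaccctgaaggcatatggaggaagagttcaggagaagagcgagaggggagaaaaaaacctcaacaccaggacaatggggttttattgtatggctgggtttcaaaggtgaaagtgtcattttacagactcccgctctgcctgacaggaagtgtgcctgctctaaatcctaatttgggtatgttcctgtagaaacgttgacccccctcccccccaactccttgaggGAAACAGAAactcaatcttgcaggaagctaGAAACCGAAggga
Psme1, chr14:55578244-55578543, plus strand: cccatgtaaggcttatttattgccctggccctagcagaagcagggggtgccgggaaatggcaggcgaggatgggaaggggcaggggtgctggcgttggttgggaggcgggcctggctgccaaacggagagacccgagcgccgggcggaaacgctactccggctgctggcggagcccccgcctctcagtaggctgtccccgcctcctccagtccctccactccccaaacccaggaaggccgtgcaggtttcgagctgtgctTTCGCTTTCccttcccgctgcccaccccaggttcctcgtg
P2ry14, chr3:59153443-59153742, minus strand: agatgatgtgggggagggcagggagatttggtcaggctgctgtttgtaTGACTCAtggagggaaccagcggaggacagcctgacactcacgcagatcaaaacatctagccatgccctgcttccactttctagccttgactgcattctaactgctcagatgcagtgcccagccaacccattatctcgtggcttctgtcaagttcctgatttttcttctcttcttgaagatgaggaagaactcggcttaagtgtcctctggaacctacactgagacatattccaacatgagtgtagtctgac
P2ry14, chr3:59131279-59131578, minus strand: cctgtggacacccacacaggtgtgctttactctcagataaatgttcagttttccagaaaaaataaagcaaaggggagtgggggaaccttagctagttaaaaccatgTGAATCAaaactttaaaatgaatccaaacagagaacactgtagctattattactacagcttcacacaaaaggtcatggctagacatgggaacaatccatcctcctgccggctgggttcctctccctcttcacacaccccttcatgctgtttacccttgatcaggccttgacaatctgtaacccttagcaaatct
Tap1, chr17:34187306-34187605, plus strand: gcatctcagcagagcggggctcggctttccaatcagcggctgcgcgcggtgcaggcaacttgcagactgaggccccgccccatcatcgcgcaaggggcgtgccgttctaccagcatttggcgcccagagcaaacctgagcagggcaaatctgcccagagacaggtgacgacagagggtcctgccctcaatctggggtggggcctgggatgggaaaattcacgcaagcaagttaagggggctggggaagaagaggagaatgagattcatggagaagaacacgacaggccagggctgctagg
No match was found in the windows of Irf8, Batf3, Timeless, Xcr1, Psmb8, Psme2 and Tapbp. These are matches of letters and show no binding.

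The MHC class I loading pathway was called higher in members in 9 of 20 tested genes against the Cd209a gate, with 1 lower (median 0.61), beside 5.89% and 7.78% over all genes. Psmb9, an inducible subunit of the immunoproteasome, which cuts peptides for class I, was at 623 and 647 CPM in members against 120.1 and 122 in the Cd209a gate (log2 difference 2.39 ± 0.16 (SE), adjusted p = 9.21e-06) and 128 and 114 in the C1q gate (log2 difference 2.39 ± 0.15 (SE), adjusted p = 1.11e-06). The Fscn1 gate held 338 and 278 CPM (log2 difference 1.05 ± 0.17 (SE), adjusted p = 0.00167). Psmb9 was thus higher in members than in each gate in both libraries. Psmb8, the second inducible subunit, was at 917 and 990.0 CPM against 453 and 484 and 367 and 340.4 (1.02 ± 0.14 and 1.43 ± 0.14, SE; adjusted p = 0.000846 and 2.3e-05). Tap1 and Tap2, the chains of the peptide transporter, were at 198 and 262 and at 119.9 and 178 CPM, with differences of 1.43 ± 0.27 and 1.36 ± 0.23 (SE) against the Cd209a gate (adjusted p = 0.00549 and 0.0031). Psme1 was at 823 and 950.5 CPM against 351 and 329 in that gate (log2 difference 1.38 ± 0.14 (SE), adjusted p = 0.00011).

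The heavy chain genes H2-K1 and H2-D1 were not called higher in any comparison. H2-K1 was at 1178 and 936 CPM, not called against the Cd209a gate (adjusted p = 0.54), and fell against the C1q gate (2041 and 1477 CPM, log2 difference -0.73 ± 0.10 (SE), adjusted p = 0.0003) and the Fscn1 gate (2856 and 2019.8 CPM, log2 difference -1.20 ± 0.11 (SE), adjusted p = 3.04e-05). B2m, the shared light chain, was at 4714 and 3943 CPM, with 4362 and 3817 in the Cd209a gate (adjusted p = 0.516) and 8665 and 8055 in the C1q gate (log2 difference -0.96 ± 0.07 (SE), adjusted p = 3.26e-06). Reads of H2-K1, H2-D1 and H2-Q7 may be shared between near-identical copies, so these values are uncertain. Against the C1q gate 8 of 20 were higher and 4 lower (median 0.36), beside 14.8% and 16.3% over all genes. Against the Fscn1 gate 3 were higher and 7 lower (median -0.17), beside 8.71% and 10.8%. There, Psme2 fell, from 2108 and 1689 CPM in the Fscn1 gate to 633 and 499 in members (log2 difference -1.75 ± 0.14 (SE), adjusted p = 1.68e-05), while the chaperones Calr and Pdia3 rose (1.72 ± 0.18 and 1.76 ± 0.25, SE; adjusted p = 8e-05 and 0.000759).

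The cross-presentation and phagosome list gave 5 higher and 5 lower of 22 against the Cd209a gate, 5 and 6 against the C1q gate and 5 and 3 against the Fscn1 gate (medians 0.13, -0.08 and 0.09). Background shares over all genes were 5.89% and 7.78%, 14.8% and 16.3%, and 8.71% and 10.8%. Rab7b, a late endosomal GTPase, was at 315 and 375 CPM against 38.4 and 18.8 in the Cd209a gate (log2 difference 3.61 ± 0.27 (SE), adjusted p = 2.22e-05), and at 267 and 231 in the C1q gate, where it was not called (adjusted p = 0.109). Rab11a, a GTPase of recycling endosomes, rose in each comparison, from 125 and 145, 159 and 165 and 199.7 and 134 CPM in the Cd209a, C1q and Fscn1 gates to 310.1 and 373 (adjusted p = 0.000858, 0.000805 and 0.00927). Its calls against the C1q and Fscn1 gates were lost after thinning to 2000 UMIs. Cybb, the catalytic subunit of the phagosomal NADPH oxidase, was at 36.5 and 2.47 CPM in members, from 14 and 1 UMIs, and fell against the Cd209a gate (149.9 and 153 CPM, log2 difference -2.99 ± 0.45 (SE), adjusted p = 0.00144) and the C1q gate (383 and 400.0 CPM, log2 difference -4.36 ± 0.41 (SE), adjusted p = 1.59e-05). Genes of this list were thus called in both directions, which was also the case over all genes.

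MHC class II molecules show peptides to CD4 T cells, and their levels in UMIs ranged widely between genes. H2-Aa was at 14954 and 17294 CPM in members and 14082 and 19126 in the Cd209a gate (log2 difference -0.04 ± 0.14 (SE), adjusted p = 0.893; 0.0389 under upper-quartile scaling), and in the Krt gate at 173 and 176 before TMM scaling. It was at 11727 and 14305 in the C1q gate (adjusted p = 0.112) and lower in the Fscn1 gate, at 10982 and 8656 (log2 difference 0.70 ± 0.14 (SE), adjusted p = 0.00496). H2-Ob, a subunit of the class II loading regulator H2-O, was higher in members in each comparison, at 203 and 235 CPM against 66.3 and 71.3, 13.1 and 8.62 and 49.9 and 16 in the Cd209a, C1q and Fscn1 gates (adjusted p = 0.00144, 1.07e-06 and 0.00101). Its calls against the Cd209a and Fscn1 gates were lost after thinning to 2000 UMIs. H2-DMb2, a subunit of the peptide exchanger H2-M, fell against the Cd209a gate, from 355 and 387 to 143 and 116 CPM (log2 difference -1.52 ± 0.18 (SE), adjusted p = 0.000345). H2-DMb1, its paralog, rose against the Fscn1 gate, from 55.5 and 102 to 834 and 1232 CPM (log2 difference 3.71 ± 0.20 (SE), adjusted p = 1.83e-06). Of 13 class II genes tested, 1 was higher and 4 lower against the Cd209a gate, 6 and 4 against the C1q gate, and 7 and 3 against the Fscn1 gate. Shares over all genes were 5.89% and 7.78%, 14.8% and 16.3%, and 8.71% and 10.8%. The genes that fell in all 3 comparisons were Ctss, Ifi30 and Lgmn, which process antigen in lysosomes. The call of Ifi30 against the C1q gate was lost under 8 alternative settings and that of Ctss against the Fscn1 gate under 5.

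**Figure D3:**
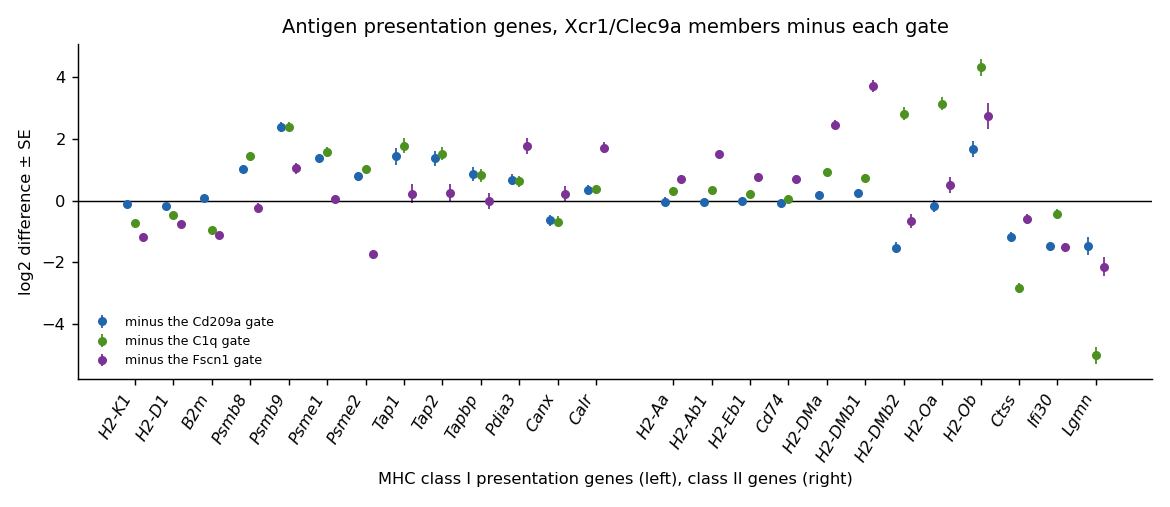
Difference (log2, with SE) of members minus the Cd209a, C1q and Fscn1 gates for 13 MHC class I presentation genes and 12 class II genes. Against the Cd209a and C1q gates Psmb9 is at 2.39 and 2.39. H2-K1 and H2-D1 are below 0 against both, called against the C1q gate and not called against the Cd209a gate. Ctss, Ifi30 and Lgmn are below 0 in all 3.

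The lysosome list showed this split more widely. Of 25 tested genes 19 were lower and 4 higher against the C1q gate (median -2.09), beside 16.3% and 14.8% over all genes. Ctsd, an aspartic protease, was at 65.1 and 44.4 CPM in members and 1960.4 and 1718 in the C1q gate (log2 difference -5.08 ± 0.17 (SE), adjusted p = 4.03e-08). Lgmn, a protease that activates other cathepsins, was at 80.8 and 49.4 and 1868 and 2339 (log2 difference -5.01 ± 0.27 (SE), adjusted p = 4.25e-07). Ctsb, a cysteine protease, was at 276 and 272 and 3975 and 4010.4 (log2 difference -3.87 ± 0.13 (SE), adjusted p = 4.03e-08). The 4 that rose were Cst3, Naaa, Ppt1 and Psap, which encodes the precursor of saposins, lipid-presenting cofactors; Psap was at 5047 and 5987 CPM against 3527 and 4088 in the C1q gate and 2182 and 2032 in the Cd209a gate (0.53 ± 0.10 and 1.38 ± 0.10, SE; adjusted p = 0.0018 and 1.58e-05). Against the Cd209a gate the same 4 were the ones called higher, and 9 were lower (median -0.33), beside 5.89% and 7.78% over all genes. In the Fscn1 comparison 9 were higher and 7 lower (median 0.28), beside 8.71% and 10.8%.

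Receptors that guide migration were called in both directions, with 3 higher and 3 lower of 17 tested against the Cd209a gate, 7 and 7 against the C1q gate and 6 and 4 against the Fscn1 gate (median 0.34, or -0.10 with 4 genes of no UMI at their bounds). The shares over all genes were 5.89% and 7.78%, 14.8% and 16.3%, and 8.71% and 10.8%. P2ry14 was at 104 and 123 CPM against 2.88 and 6.57 in the Cd209a gate (log2 difference 4.57 ± 0.37 (SE), adjusted p = 5.57e-05). It had no UMI in the Fscn1 gate, which makes it at least 14-fold higher in members against a floor of 3 counts over both libraries. Cxcr3, the receptor for Cxcl9 and Cxcl10, was at 20.8 and 22.2 CPM against 0 and 0.938 in the Cd209a gate, a pooled ratio of 45.4-fold (counting interval 7.12 to 1898). Itgal, the integrin chain of LFA-1, was at 59.9 and 44.4 CPM against 8.65 and 10.3 and 23.3 and 28.7 in the Cd209a and C1q gates (2.45 ± 0.40 and 1.01 ± 0.30, SE; adjusted p = 0.00245 and 0.0256). Its call against the C1q gate was lost under DESeq2. Ccr2, the receptor by which monocytes enter tissue, was at 70.4 and 64.2 CPM, below 159 and 130.4 in the Cd209a gate (log2 difference -1.10 ± 0.20 (SE), adjusted p = 0.00435) and above the Fscn1 gate, where 2 UMIs were counted (pooled ratio 12.3-fold (counting interval 3.25 to 105)). Cx3cr1, the fractalkine receptor, had no UMI in members and 109 and 155 CPM in the C1q gate, at least 33.7-fold lower.

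For recognition of dead cells, the list gave 3 higher and 6 lower of 19 tested against the Cd209a gate (median -1.38), 3 and 12 against the C1q gate (median -2.65, or -2.23 with 2 genes at their bounds) and 3 and 3 against the Fscn1 gate (median -1.02). Shares over all genes were 5.89% and 7.78%, 14.8% and 16.3%, and 8.71% and 10.8%. Havcr2 (TIM-3), which binds phosphatidylserine and other ligands, rose in all 3: members held 93.8 and 165 CPM, and the Cd209a and C1q gates 17.3 and 27.2 (log2 difference 2.53 ± 0.25 (SE), adjusted p = 0.000121) and 54.9 and 72.3 (log2 difference 1.004 ± 0.20 (SE), adjusted p = 0.00296). In the Fscn1 gate 2 UMIs were counted, and the pooled ratio was 24-fold (counting interval 6.47 to 201). The call of Havcr2 against the C1q gate was lost after thinning to 2000 UMIs. Timd4 (TIM-4), another phosphatidylserine receptor, was at 36.5 and 49.4 CPM and also rose in each (adjusted p = 0.0334, 4.51e-05 and 0.0432 against the Cd209a, C1q and Fscn1 gates). Its call against the Fscn1 gate, where 2 UMIs were counted (pooled ratio 7.92-fold (counting interval 2.03 to 68)), was lost under DESeq2 and 2 other settings. Receptors of macrophages were low: Msr1, a scavenger receptor, and Mertk had no UMI in members, at least 18.7-fold and 4.11-fold lower than in the C1q gate. Sirpa, the receptor for CD47 that cDC2 cells carry, had 2 UMIs in members and 60.5 and 91 CPM in the Cd209a gate, a pooled ratio of 29.9-fold (counting interval 8.16 to 249) lower in members.

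Pattern recognition genes were called in both directions, with 3 higher and 6 lower of 19 tested against the Cd209a gate (median -0.47), 1 and 9 against the C1q gate (median -1.85) and 4 and 1 against the Fscn1 gate (median 0.40). The background shares over all genes were 5.89% and 7.78%, 14.8% and 16.3%, and 8.71% and 10.8%. Tlr3, the endosomal sensor of double-stranded RNA, was sparse, at 15.6 and 29.6 CPM from 6 and 12 UMIs. It was higher than in the C1q gate, at 3.22 and 1.78 (log2 difference 3.08 ± 0.65 (SE), adjusted p = 0.00425), and than in the Cd209a gate, where 1 UMI was counted (pooled ratio 48.1-fold (counting interval 7.59 to 2003)). At a thinned depth of 2000 UMIs 3.53% of members had a Tlr3 UMI and 2.22% of the Krt gate, and unthinned 18.8% and 5.93%, at the median depths given for Irf8; at the thinned level, near that of 1 UMI, no difference is read. Clec12a, an inhibitory lectin receptor for uric acid crystals, rose against the Cd209a gate, from 73 and 60 to 208 and 244 CPM (log2 difference 1.77 ± 0.21 (SE), adjusted p = 0.000353). Clec4n, the lectin dectin-2, had 3 UMIs in members and 69.2 and 249 CPM in the Cd209a gate, a pooled ratio of 42.1-fold (counting interval 14.3 to 205) lower. Tlr7, a sensor of single-stranded RNA, had no UMI in members and 31.5 and 24.9 CPM in the C1q gate, at least 7.56-fold lower.

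Costimulatory and checkpoint genes were called in both directions. Btla, an inhibitory receptor for HVEM, was at 133 and 133 CPM, against 15.4 and 10.3 in the Cd209a gate (log2 difference 3.37 ± 0.31 (SE), adjusted p = 6.24e-05) and 1.25 and 0.507 in the C1q gate (log2 difference 7.05 ± 0.35 (SE), adjusted p = 2.71e-07). Cd86, a ligand of CD28 on T cells, was at 232 and 279 CPM and was called in none (adjusted p = 0.334, 0.634 and 0.565). Cd40 was at 31.3 and 29.6 CPM, 74 and 46.9 in the Cd209a gate (log2 difference -0.97 ± 0.29 (SE), adjusted p = 0.0469) and 64.8 and 43.4 in the C1q gate (log2 difference -0.82 ± 0.27 (SE), adjusted p = 0.0418); these 2 calls were lost under 11 and 8 alternative settings, DESeq2 and upper-quartile scaling among them. Against the Fscn1 gate, with 566 and 337 CPM, it was also called lower (log2 difference -3.86 ± 0.26 (SE), adjusted p = 5.2e-06). Cd274 (PD-L1) was at 13 and 7.41 CPM in members, from 5 and 3 UMIs, and at 139 and 166 in the Fscn1 gate (log2 difference -3.90 ± 0.43 (SE), adjusted p = 0.000122), and was not called against the others (adjusted p = 0.369 and 0.23). Of 17 tested, 2 were higher and 2 lower against the Cd209a gate (median -0.68, or 0.10 with 3 genes of no UMI at their bounds), 3 and 4 against the C1q gate, and 3 and 9 against the Fscn1 gate. Over all genes these shares were 5.89% and 7.78%, 14.8% and 16.3%, and 8.71% and 10.8%.

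The mature dendritic list of 22 genes fell almost whole against the Fscn1 gate, with 21 lower and 0 higher (median -4.59), beside 10.8% and 8.71% over all genes. The Fscn1 gate was chosen by genes of this programme, so the direction is set by the gate. Socs2, an inhibitor of cytokine signalling, had 1 UMI in members and 438 and 481 CPM in the Fscn1 gate, a pooled ratio of 363-fold (counting interval 64.2 to 14414) lower. Against the Cd209a gate 7 were lower and 0 higher (median -0.72), with Marcksl1 at 185 and 44.4 CPM in members against 639.8 and 555 (log2 difference -2.52 ± 0.30 (SE), adjusted p = 0.000344). In the C1q comparison 4 were higher and 6 lower (median -0.55). The shares over all genes, higher and lower, were 5.89% and 7.78% against the Cd209a gate and 14.8% and 16.3% against the C1q gate. In the Fscn1 and Cd209a comparisons DESeq2 also called 0 higher, and 0 were higher at an unadjusted edgeR p under 0.05.

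Secreted factors come next. None of 13 cytokine genes and none of 19 chemokine genes was called higher against the Cd209a gate by edgeR, and 3 of each were lower (medians -0.16 and -0.58, the second -0.37 with 1 gene at its bound). DESeq2 called 0 higher in both lists, and at an unadjusted edgeR p under 0.05 3 cytokines and 0 chemokines were higher. Of the 13 cytokines, 1 was higher (Il12b) and 7 lower against the C1q gate, and 1 higher (Il18) and 5 lower against the Fscn1 gate. Shares over all genes were 5.89% higher and 7.78% lower against the Cd209a gate. They were 14.8% and 16.3% against the C1q gate and 8.71% and 10.8% against the Fscn1 gate. Il1b was at 427 and 2039 CPM in members, 2675 and 6168 in the Cd209a gate, 1115 and 3734 in the C1q gate and 1248 and 3024 in the Fscn1 gate. In each set replicate 2 was the higher library, and within each library members were the lowest set. Its differences were -2.07 ± 0.20, -1.07 ± 0.20 and -0.99 ± 0.21 (SE, adjusted p = 0.000102, 0.00183 and 0.00651). Each of these calls was lost with no replicate block. Il6 had no UMI in members and 25.9 and 55.3 CPM in the Cd209a gate, at least 10.7-fold lower. Il18, a cytokine that acts on NK and T cells, was at 49.5 and 49.4 CPM and rose against the Fscn1 gate (adjusted p = 0.0126), where 1 UMI was counted, a pooled ratio of 18.2-fold (counting interval 3.07 to 736).

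Of 19 chemokines, 14 were lower and 2 higher against the C1q gate (median -3.63, or -3.47 with 1 gene at its bound), beside 16.3% and 14.8% over all genes. Pf4 was at 13 and 7.41 CPM in members and 1048 and 601 in the C1q gate (log2 difference -6.34 ± 0.29 (SE), adjusted p = 1.53e-07), and Ccl3 at 39.1 and 56.8 and 769 and 579 (log2 difference -3.79 ± 0.30 (SE), adjusted p = 4.87e-06). The 2 that were higher, Ccl17 and Ccl22, came from few cells: a single member held 43.2% of the Ccl17 UMIs of replicate 1 and another 79.0% of those of replicate 2. The first of these 2 cells met the rule through 2 Clec9a UMIs. It had 0 UMIs of Xcr1 and Irf8 and 68 of Cst3. For Ccl22, 37 of the 43 UMIs of replicate 1 members lay in 6 members with 3 or more Ccr7 UMIs. Ccl5 was at 167 and 7.41 CPM in members and 10594 and 3527 in the Fscn1 gate (log2 difference -6.41 ± 0.49 (SE), adjusted p = 1.16e-05). Cxcl9, which draws CXCR3-bearing T cells and for which tumour cDC1 cells are known, was at 62.5 and 66.7 CPM in members. It was at 17.3 and 16.9 in the Cd209a gate, 111 and 5.83 in the C1q gate and 72.1 and 5.34 in the Fscn1 gate, and was called in none (adjusted p = 0.236, 0.612 and 0.639). It had UMIs in 8 members of replicate 1 and 3 of replicate 2, and 1 member held 85.2% of those of replicate 2.

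The interferon response list held 22 tested genes, with 3 higher and 1 lower against the Cd209a gate (median 0.12), 3 and 6 against the C1q gate (median -0.71) and 0 and 5 against the Fscn1 gate (median -0.87), where DESeq2 also called 0 higher and 0 were higher at an unadjusted edgeR p under 0.05. The 3 that rose against the Cd209a gate were Irf7, Stat2 and Usp18, a brake on interferon receptor signalling at 33.9 and 49.4 CPM against 9.61 and 6.57 (log2 difference 2.38 ± 0.47 (SE), adjusted p = 0.00675). Ifitm3, which blocks virus entry, fell from 2287 and 2389.7 to 581 and 306 CPM (log2 difference -2.47 ± 0.23 (SE), adjusted p = 7.49e-05). Growth factor receptors and survival genes gave 1 higher and 6 lower of 24 against the Cd209a gate, 4 and 12 against the C1q gate and 2 and 4 against the Fscn1 gate. Over all genes the shares called higher and lower were 5.89% and 7.78%, 14.8% and 16.3%, and 8.71% and 10.8%. Genes called higher in the growth factor list were near these shares in each comparison, as were those of the interferon list against the C1q gate. Kit, the stem cell factor receptor, was at 31.3 and 44.4 CPM and rose against the C1q gate, which held 1.25 and 1.27 (log2 difference 4.75 ± 0.50 (SE), adjusted p = 4.05e-05). Csf3r, the G-CSF receptor, had no UMI in members and 20.2 and 21.3 CPM in the C1q gate, at least 5.43-fold lower.

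**Figure D4:**
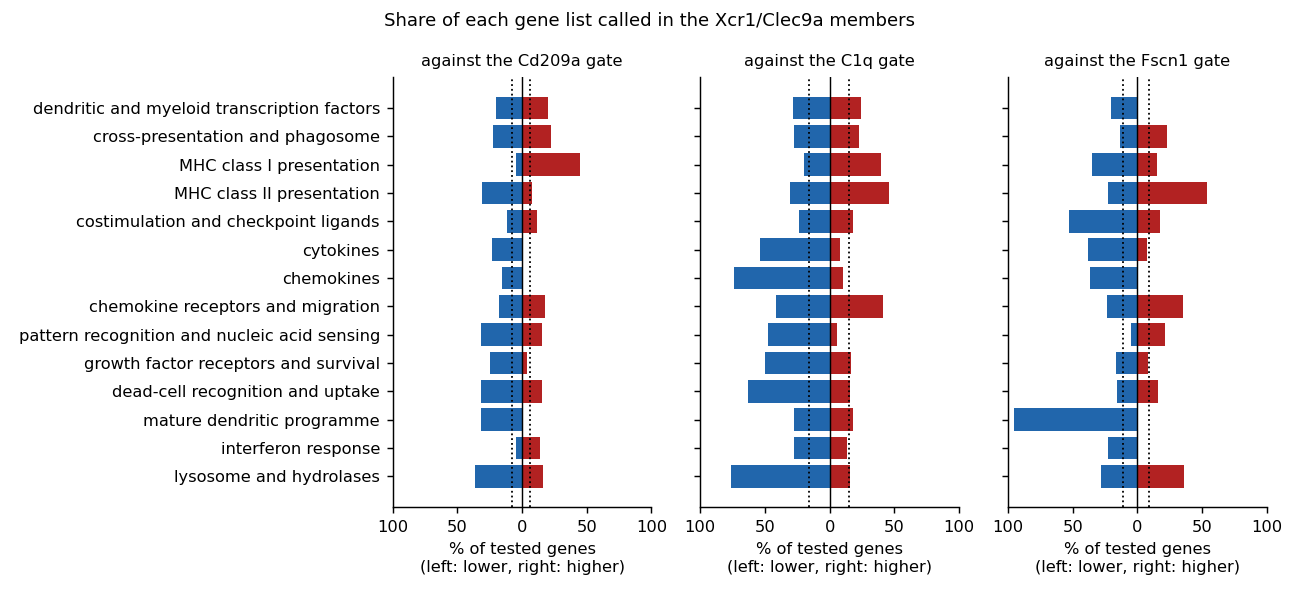
Share of the tested genes of 14 lists called higher (red, right) or lower (blue, left) in members against the Cd209a, C1q and Fscn1 gates; dotted lines mark the shares over all genes, such as 5.89% higher and 7.78% lower against the Cd209a gate. Class I presentation stands out to the right against the Cd209a gate and the lysosome and chemokine lists to the left against the C1q gate.

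Over all genes called, and among those of at least 50 CPM in the members of both libraries, the largest rises against the Cd209a gate were Cadm1, Irf8, Ncoa7, P2ry14 and Timeless. Ncoa7, a nuclear receptor coactivator that also binds endolysosomal proton pumps, was at 141 and 148 CPM against 5.76 and 5.63 (log2 difference 4.65 ± 0.32 (SE), adjusted p = 9.71e-06). Timeless, which protects replication forks, was at 67.7 and 66.7 CPM against 2 UMIs in that gate, a pooled ratio of 70.8-fold (counting interval 18.7 to 599.7). Against the C1q gate, Cacna1s, a calcium channel subunit, was at 65.1 and 64.2 CPM against 0.715 and 0.254 (log2 difference 6.87 ± 0.65 (SE), adjusted p = 1.72e-05), and Ffar4, a receptor for long-chain fatty acids, at 88.6 and 61.7 against 1.25 and 0.507 (log2 difference 6.33 ± 0.53 (SE), adjusted p = 8.06e-06). Against the Fscn1 gate Unc119, Ramp1 and Timeless had no UMI in that gate, and were at least 12.3-fold, 8.69-fold and 8.23-fold higher in members.

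The largest falls were genes near 0 in members. Against the Cd209a gate Cd209d, a paralog of the gate's own gene with which it may share reads, Cd7, Slc7a11, a cystine transporter, and Pxdc1 fell, with 1, 1, 2 and 2 UMIs in members. Slc7a11 was at 152 and 76 CPM in the Cd209a gate, a pooled ratio of 44.7-fold (counting interval 12.2 to 372) lower. Against the C1q gate Igf1, the matrix metalloprotease Mmp12 and Tmem119 had no UMI in members and were at least 27.6-fold, 34.4-fold and 21-fold lower. Against the Fscn1 gate Ankrd33b, Nrp2, a coreceptor for semaphorins, and Mreg had no UMI in members and were at least 48.7-fold, 45.8-fold and 25-fold lower.

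Members also differed among themselves. With each member thinned to 2000 UMIs, the ratio of variance to mean over members had a median of 1.13 in replicate 1 and 1.07 in replicate 2 over 879 genes. The 10 genes with the highest ratios in the lower of the libraries were Malat1, Ccl17, Fth1, Cst3, Tmsb4x, Il1b, Vim, Lyz2, H2afz and Plac8. Plac8 was uneven in both: 28 and 22 members had none, and 8 and 8 had 9 or more UMIs, with up to 81 and 30. The members with 9 or more Plac8 UMIs held Naaa at 997 and 1181 CPM, against 980.2 and 1557 in the others, and Irf8 at 797 and 629 against 844 and 1039.9. Ly6c2, a monocyte marker, was at 1121 CPM in those of replicate 1, where 1 cell with 81 Plac8 UMIs held 84.8% of all its UMIs, and at 10.8 in those of replicate 2. That cell had no UMI of Irf8 or Naaa and the lowest Cst3 count of all members (16), and it met the rule through 2 Clec9a UMIs. It was 1 of 3 members, all of replicate 1, with 10 or fewer UMIs of the 11 other cDC1 markers.

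A second uneven gene was Ccr7, the receptor that leads dendritic cells to lymph nodes, with 116 UMIs in replicate 1 and 3 in replicate 2. In replicate 1, 6 members had 3 or more Ccr7 UMIs, and none of these had a UMI of Fscn1, which the rule limits; in replicate 2 there was no such member. Those 6 held Il12b, the p40 chain of interleukin 12, at 1063 CPM, against 48.3 in the other 40 members of that library. All 61 Il12b UMIs of the 6 lay in 3 of these cells (26, 26 and 9), and the other 3 had 0. Ccl22 was at 645 against 18.1 CPM, Cxcl9, seen in 3 of the 6, at 296 against 21.1, Irf8 at 1760.2 against 674 and Id2 at 2056 against 997. These 6 cells come from 1 library and were set apart after their values were seen, so the values describe them and are not tested. Il12b in members rests on them: it was at 201 and 0 CPM, from 77 and 0 UMIs (0 UMIs in replicate 2 allow up to 8.60 CPM, exact Poisson 95%), and was called higher against the C1q gate (log2 difference 5.05 ± 1.15 (SE), adjusted p = 0.00628). Without these 6 cells the call was lost (log2 difference 2.95, adjusted p = 0.0947), as it was with DESeq2 (adjusted p = 0.0759); over all settings that kept both libraries the adjusted p ran from 2.66e-42 with no filter on low counts to 0.0947. In replicate 2 alone the difference was -2.45.

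**Figure D5:**
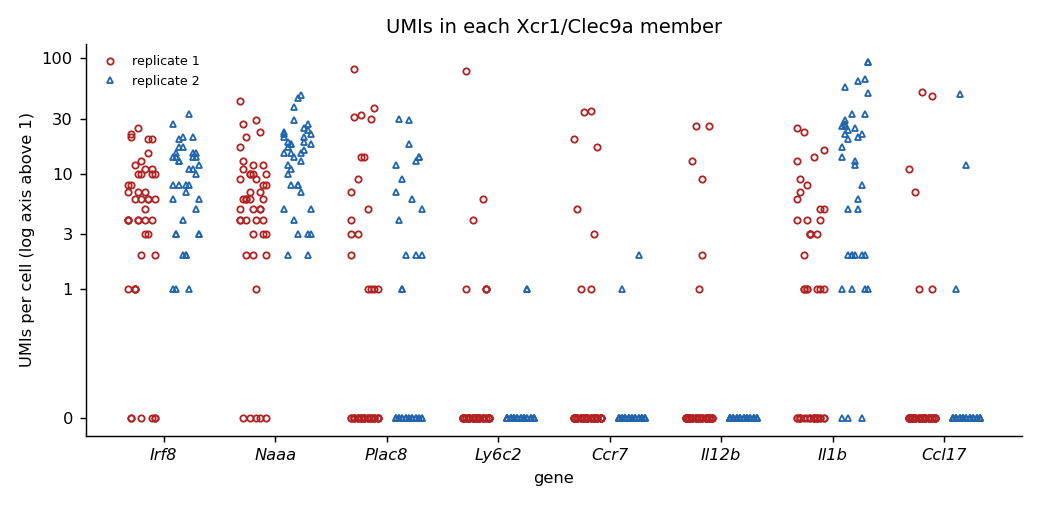
UMIs of 8 genes in each member (log axis above 1), with circles for the 46 members of replicate 1 and triangles for the 39 of replicate 2. Irf8 and Naaa are spread over most members, Plac8 is at 0 in 28 and 22 of them, and Ccr7 and Il12b above 2 UMIs are seen in replicate 1 alone.

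The libraries were compared gene by gene within members through exact Poisson intervals (95%), which cover counting error only and are no test. Of 3755 genes with 10 or more UMIs in either library, 173 had separate intervals with replicate 1 higher and 85 with replicate 2 higher. At a ratio of 3 or more these were 73 and 16. Il1b was at 422 (360.1 to 492) CPM in replicate 1 and 1926 (1797 to 2062) in replicate 2, before TMM scaling. Plet1 was at 92.7 (64.9 to 128) and 401 (343 to 466). Cxcl10 was at 15.4 (5.67 to 33.6) and 139.9 (107 to 180.1), and Ifit3, an interferon-induced gene, at 2.57 (0.0652 to 14.3) and 70 (47.2 to 99.9). S100a4, a calcium-binding protein of motile cells, was at 221 (177 to 273) and 9.33 (2.54 to 23.9), and Nfkbia, the inhibitor of NF-kB, at 672 (593 to 759) and 212 (171 to 261). Cst3, Irf8, Ppt1 and Psmb9 had 37442 (36835 to 38055), 834 (746 to 930.2), 1007 (909 to 1112) and 615 (539.8 to 699) CPM in replicate 1 and 38079.6 (37498 to 38668), 951 (861 to 1048), 1117 (1019 to 1222) and 611 (539 to 689.6) in replicate 2, with intervals that overlap for each of these 4, which were picked after their values were seen. Naaa was at 984 (887 to 1087) and 1476 (1363 to 1596) CPM and Itgae at 124 (91.1 to 164) and 238 (194 to 289), with separate intervals and replicate 2 higher. With 1 library on each side, animal, handling and batch cannot be told apart.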

How the data were processed

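Tumour cells selected for CD11c were profiled in 2 libraries with 10x Chromium 3' v2 chemistry. Per the submitters' processing notes, Cell Ranger 2.2.0 and the genome build mm10 were used; the deposited matrices hold raw UMI counts for 27998 genes and 737280 barcodes each, unfiltered per the file contents. What else the authors did is not given in the sources used here; no file or label records it. The members, gene lists and tests were chosen with earlier results of these data known, and the gates choose cells by genes counted in the same cells.

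Counts were summed per library over each of 4 gates and fitted as 8 sums with edgeR 4.0.16 (limma 3.58.1, R 4.3.3): filterByExpr, TMM, a library block and the quasi-likelihood test, with Benjamini-Hochberg adjustment over the 6030 genes tested (3 residual degrees of freedom, biological coefficient of variation 0.120). All genes that choose one of these 4 gates were left out. The block is in the design because gates of 1 library come from the same capture; correlations of deviations between same-numbered sums ran from 0.0279 to 0.367. Calls were made below an adjusted p of 0.05, and in lists a gene was counted only if it passed the filter. Against a gate with no UMI, folds are bounds from a floor of 3 counts over both libraries; with 1 to 3 UMIs, pooled ratios with exact 95% intervals are given. Sequencing intervals cover counting error only. Named per comparison were up to 2 genes of each list with the largest called change, the 5 largest rises and 5 largest falls with at least 50 CPM in the higher gate, and 20 fixed genes; further names were added after values were seen. Doublets were scored with Scrublet in scanpy 1.11.5 and not removed. DESeq2 1.42.0, other scaling, filters, limits on cells and thinning to 2000 UMIs were alternatives. The fit was also run on simulated counts with the same dispersion (spread beyond counting error) for every gene and no library effect. That run does not show how the fit handles genes carried by few cells. Clec7a, Trac and Trbc2 were written into the lists but are not among the gene symbols of the matrices, so they were not counted. Gene positions are from GENCODE (GRCm38), with 135 of 135 genes matched, and promoter sequences are from RefSeq (GRCm38.p6), with no entry for Cadm1. Analyses used Python 3.11.15 and scipy 1.17.1.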

Additional observations from a re-analysis of the deposited data

How the results depend on the processing

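Counts of called genes stayed within 1.5 times under DESeq2, upper-quartile scaling, no filter on low counts, a fit of only the 2 gates compared, other limits on cells and removal of high doublet scores. Thinning each cell to 2000 UMIs lowered them to 136 higher and 200 lower against the Cd209a gate, 359 and 481 against the C1q gate, and 217 and 275 against the Fscn1 gate; that setting holds fewer counts. With no replicate block the counts were 271 and 359, 726 and 850, and 478 and 606, so the pairing of sums by library moved no count by over 1.5 times. The share of cells meeting the rule rose to 4.34% in replicate 1 and 4.44% in replicate 2 with 1 UMI of Xcr1 and Clec9a, and fell to 1.12% and 2.39% with 3; without 1 replicate it ran from 2.35 to 3.21%. With 1 library left there are no residual degrees of freedom and no calls, so those settings gave folds alone. Upper-quartile scaling moved the median difference of all genes against the C1q gate from -0.03 to 0.09. Under settings that kept both libraries, the named gene differences that changed sign were uncalled ones: H2-Aa against the Cd209a gate was at 0.0389 under upper-quartile scaling, 0.0216 with 3 UMIs of Xcr1 and Clec9a and 0.0252 without Plac8-rich members; Batf3 against the Fscn1 gate was at 0.0421 under upper-quartile scaling, 0.10 with no filter, 0.22 with C1q under 0.05% and 0.0106 with mitochondrial genes at most 5%; Cxcl9 against the C1q gate was at -0.15 after thinning; B2m against the Cd209a gate was at -0.0202 with no filter; Cd86 was at -0.00590 against the Cd209a gate and -0.31 against the C1q gate after thinning, and at -0.0503 against the C1q gate without Ccr7-rich members; the cause was not tested. With 1 library left, 9 named differences changed sign, of which 1 was called: Il12b against the C1q gate, at -2.45 without replicate 1 and 6.68 without replicate 2. The others were Il12b against the Cd209a gate (-3.70 without replicate 1), H2-Aa against the Cd209a gate, Cxcl9 against the C1q gate, and Batf3, Cxcl9, Flt3, Id2 and Irf8 against the Fscn1 gate. Of 3795 checks of 214 named values under settings that kept both libraries, 3646 kept direction and call, 102 lost the call and 35 gained it. Among those lost under DESeq2 were Itgal, Cadm1, Maf, Mertk and Tmem119 against the C1q gate. Thinning to 2000 UMIs also lost the calls of Tap2, Usp18, Ccr2 and Cebpb against the Cd209a gate and of Ccr2 against the Fscn1 gate. Settings that left out members rich in Ccr7 or Plac8, members low in other cDC1 markers or collagen-rich Fscn1 gate cells were chosen after seeing the data.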
